A study of Mus musculus with 8 samples.

Results

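The methylated autosomal CpG islands of differentiating mouse embryonic stem cells (mESCs) were chosen by their measured level. Members were the autosomal islands read in each of the 8 libraries whose 8 values of percent CpG methylation averaged 5% or more. The rule found 296 islands, 3.97% of the 7454 autosomal islands with a value in every library, out of 13840 islands listed. Reduced representation bisulfite sequencing (RRBS) reads CpG-rich fragments cut at CCGG sites. It had been run on male mESC lines after 2 and 2.5 days of differentiation towards neuromesodermal progenitors. Lines of both genotypes came from Castaneus fathers and mothers of another strain, and reads were mapped to the mouse reference genome. The effect of strain differences in sequence on the levels was not tested. At day 2 the medium was changed to activate Wnt signalling, so day 2.5 cells had received this treatment. The study asked whether DNA methylation changes when the mother's supply of the chromatin protein SMCHD1 is missing. Control cells, Smchd1wt, carried Smchd1[fl/+], so a floxed allele was present in the controls too, and Smchd1matΔ cells carried Smchd1[del/+], with the allele deleted in the oocyte by Zp3-Cre and the paternal allele intact. There were 2 lines per genotype, each from a separate blastocyst, and each line gave 1 library per day, so every genotype and day had n = 2. Cell identity could not be checked against marker genes in these libraries, since only DNA methylation was read. From RNA sequencing of both genotypes in this differentiation, the paper reported that pluripotency factors were lost and differentiation factors rose. The number of reads behind each value is unknown, so no counting error can be given for a single percentage.

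CpG islands are stretches of DNA where CpG sites stay frequent, and most lie at transcript starts and carry little methylation. Methylated islands are known mainly from promoters of germline genes that are silenced in the embryo, from imprinted regions, where the parental copies differ, from the X chromosome, and from islands inside genes. Repeat elements, whose copies are usually silenced by methylation, can also be dense enough in CpG to be listed as islands.

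The sequences below show what such DNA looks like, in islands not classed as repeats and free of annotated untranslated exons. Such islands can hold a few bases marked as repeat, 0.721% of them in the Tnfrsf13b island. Each is the first 300 bases of the island on the plus strand of GRCm38, and CG dinucleotides, the sites that can be methylated, are in capitals. Celsr1, a cadherin of planar cell polarity, held the highest level among islands not classed as repeats. Daxx, a histone chaperone, headed the class from 10 to 50%. Tnfrsf13b, a receptor of B cells, had the largest genotype difference at day 2, and Kank2, an adaptor of the cytoskeleton, the largest difference between lines. Dact3, a regulator of Wnt signalling, headed the class under 10% among islands not classed as repeats and free of untranslated exons.
Celsr1 chr15:86031209-86031508: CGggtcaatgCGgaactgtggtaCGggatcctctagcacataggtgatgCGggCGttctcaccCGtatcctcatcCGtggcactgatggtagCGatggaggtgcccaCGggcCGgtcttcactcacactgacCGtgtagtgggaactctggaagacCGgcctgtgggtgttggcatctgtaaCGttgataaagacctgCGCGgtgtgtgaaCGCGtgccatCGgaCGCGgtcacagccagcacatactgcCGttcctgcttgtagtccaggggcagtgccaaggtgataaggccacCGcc
Daxx chr17:33911574-33911873: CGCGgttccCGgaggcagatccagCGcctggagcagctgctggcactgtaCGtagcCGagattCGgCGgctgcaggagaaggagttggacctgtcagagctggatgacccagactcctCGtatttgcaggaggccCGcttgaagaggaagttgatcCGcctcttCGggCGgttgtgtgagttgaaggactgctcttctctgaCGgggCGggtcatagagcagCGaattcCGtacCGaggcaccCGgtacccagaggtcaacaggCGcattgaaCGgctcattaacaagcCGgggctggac
Tnfrsf13b chr11:61147234-61147533: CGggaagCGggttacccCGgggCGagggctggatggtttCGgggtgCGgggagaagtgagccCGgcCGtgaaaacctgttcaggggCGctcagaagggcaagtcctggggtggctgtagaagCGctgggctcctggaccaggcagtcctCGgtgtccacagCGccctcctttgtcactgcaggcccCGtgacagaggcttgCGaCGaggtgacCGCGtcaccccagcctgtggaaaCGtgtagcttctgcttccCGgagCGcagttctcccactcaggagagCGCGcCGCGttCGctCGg
Kank2 chr9:21795116-21795415: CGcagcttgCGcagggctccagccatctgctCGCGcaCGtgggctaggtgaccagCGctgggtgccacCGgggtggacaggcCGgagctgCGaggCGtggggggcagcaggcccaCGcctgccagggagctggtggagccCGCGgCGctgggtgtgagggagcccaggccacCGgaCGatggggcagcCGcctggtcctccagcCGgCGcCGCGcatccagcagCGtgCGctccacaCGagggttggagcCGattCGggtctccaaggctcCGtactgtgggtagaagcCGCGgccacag
Dact3 chr7:16885082-16885381: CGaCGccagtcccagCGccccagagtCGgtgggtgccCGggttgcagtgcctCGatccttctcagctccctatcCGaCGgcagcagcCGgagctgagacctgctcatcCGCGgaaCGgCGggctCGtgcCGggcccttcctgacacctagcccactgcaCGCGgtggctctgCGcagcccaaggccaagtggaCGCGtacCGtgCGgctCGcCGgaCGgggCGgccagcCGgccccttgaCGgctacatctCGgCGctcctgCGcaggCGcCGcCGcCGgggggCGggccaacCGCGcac
The 300 bases held 22 CG sites in Celsr1, 22 in Daxx, 26 in Tnfrsf13b, 29 in Kank2 and 38 in Dact3. They held 2, 3, 3, 4 and 6 CCGG sites in the same order. CCGG reads the same on both strands, and 100% of members and of all autosomal islands with a value hold it. The GC content of these windows was 59.7% in Celsr1, 60.7% in Daxx, 66.7% in Tnfrsf13b, 73.0% in Kank2 and 73.7% in Dact3, so the 2 windows richest in GC were not the most methylated.

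The members ran from 5.02% to 94.7% with a median of 11.2%, against a median of 0.406% over all autosomal islands with a value, a difference that the rule itself sets. Of those islands, 83.4% were under 1%, and the 296 members held 60.4% of the summed level of the autosomal islands. A low class of 5 to 10% had 130 members with a median of 6.66%, a middle class of 10 to 50% had 128 with a median of 17.8%, and a high class over 50% had 38 with a median of 78.7%. The lowest members were an exon island of Fev at 5.02% and one of Gm14486 at 5.03%, and just under the limit stood an exon of H2-Q7 at 4.97% and an island nearest to Gm11726 at 4.98%.

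**Figure D1:**
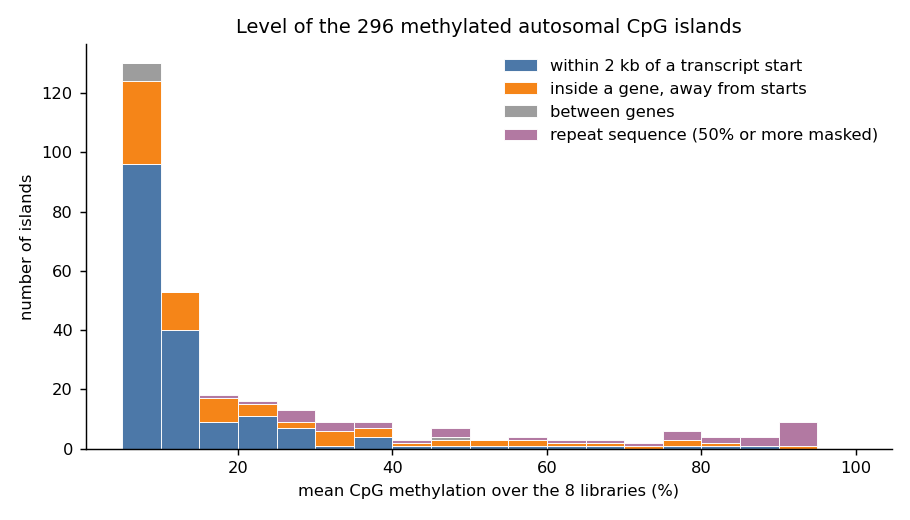
Number of methylated autosomal islands (vertical axis) by mean methylation over the 8 libraries in steps of 5 points (horizontal axis, %), stacked by genome context. The first bar holds 130 islands, the counts fall to 2 from 70 to 75%, and they are higher again above, with 9 from 90 to 95%. Repeat islands make up most of the bars from 85% upward.

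The level classes differed in where they lay. Among members, 59.8% lay within 2 kb of an annotated transcript start, against 96.5% of the autosomal islands under 5%. That share was 73.8% in the low class, 57.8% in the middle class and 18.4% in the high class. Set out by context, 177 members were at a start, 77 lay inside a gene away from starts, 35 were repeats and 7 lay between genes. Read the other way, members were 2.50% of the 7083 islands at a start, 5.30% of the 132 between genes and 37.7% of the 204 inside genes. These shares are descriptions of 1 genome, with no test.

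All 35 autosomal islands with a value whose bases were 50% or more soft-masked, the assembly's mark for repeats, were members. The most masked island under 5% had 46.3% of its bases masked, and the least masked of the 35 had 89.9%. Their levels ran from 20% to 94.7% with a median of 67.1%, and 20 of the 38 islands of the high class were among them. None was within 2 kb of a start: 24 lay between genes and 11 in introns, and the nearest start was 3.50 kb to 457 kb away, with a median of 26.9 kb. A median of 14.3% of their 75-base fragment ends at CCGG sites, converted as bisulfite would, occurred once in the genome, against 100% in the median member at a start. The effect of this on the level was not tested.

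The 5 highest members were all fully masked repeats. An island 7244 bp from Gm42642 (chr6:3190228-3190746) had a mean of 94.7% and ranged from 91.1% to 98.0% over the 8 libraries. An island nearest to Olfr459 (chr6:41807208-41807852) averaged 94.7%, and one in an intron of Nrg1, a growth factor of the nervous system and heart, averaged 94.5% (chr8:32853310-32853750). The next were near Gm13991 at 93.6% and in an intron of Gm4856 at 93.4%. All 5 stayed between 88.6% and 98.3% in every library.

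The other 18 members over 50% were not repeats, and 11 of them lay inside genes. The Celsr1 island, in a coding exon 2100 bp from the nearest start (chr15:86031209-86031677), averaged 90.8% ± 4.92 (SD over 8 libraries). An exon of Plekhg4, a guanine nucleotide exchange factor, averaged 88.2% ± 2.94 (chr8:105374605-105375144). Next came exons of Lrfn1, a synaptic adhesion protein, at 82.0% ± 8.19, and of Slc8a2, a sodium-calcium exchanger, at 81.8% ± 4.96. The island at the shared start of Tmem267 and 3110070M22Rik stood at 50.5% ± 3.49, with values from 42.7% to 53.7% in all libraries of both genotypes (chr13:119487973-119489121).

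Members lay further along their host genes than islands under 5%. Measured from the start of the host gene to its end, the middle of the island fell at a median of 39.0% in members, against 0.897% in islands under 5%. In the 19 islands of the high class with a host gene it was 71.3%. Of the 75 gene body members with a host gene, 38 were in its last 20%, a share not counted over all gene body islands. Gene body islands in general also lay late. Their median position was 76.0% over all of them and 82.0% in members, and 74.3% of all and 81.3% of members were past the middle of the host gene. Even members close to a start were often not at the main one: 47.9% of those with a host gene were in its first 10%, against 81.9% of the islands under 5% at a start. Coding exons overlapped 71.3% of members and 65.6% of islands under 5%, whereas exons that are only untranslated were the leading feature of 8.11% of members and 28.7% of islands under 5%.

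Members were less dense in CpG than other islands. The observed over expected CpG ratio listed with each island had a median of 0.78 in members and 0.86 in islands under 5%. The ratio counted from the genome sequence over the same coordinates was 0.807 against 0.893, and was 0.842, 0.789 and 0.741 in the low, middle and high class. The listed ratio gave another order, 0.80, 0.74 and 0.815, so the place of the high class depended on which ratio was read. CpG sites per 100 bp of genome sequence had medians of 10.6 under 5%, then 9.46, 8.61 and 7.30 in the low, middle and high class. That median was 6.91 in repeat members, 9.27 in members at a start and 9.02 in those inside genes. Repeats made up 20 of the 38 islands of the high class. Members were 26.5% of the islands with a listed ratio of 0.6 to 0.65 and 1.43% of those from 0.9 to 1.0, rising again to 3.16% of those at or over 1.0. The extremes by listed ratio were islands in Zfhx3 (mean 19.6%) and Zfp319 (30.2%), both at 0.60, and repeats near Gm23507 (83.4%) and Gm48528 (58.9%), both at 1.22.

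Length differed less. The median member was 705 bp long, against 808.5 bp under 5%, with 753.5, 619 and 642.5 bp in the 3 classes. Members were 7.28% of the islands under 500 bp and between 3.01% and 4.04% in each longer bin. The longest was a 5823 bp island over AY036118 and the ribosomal RNA related sequence Rn18s-rs5 (chr17:39843001-39848823) with a mean of 9.54%, then a 3454 bp island at Gata2, a transcription factor of blood development, at 5.58%, and a 2887 bp island at Ajm1 at 7.75%.

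**Figure D2:**
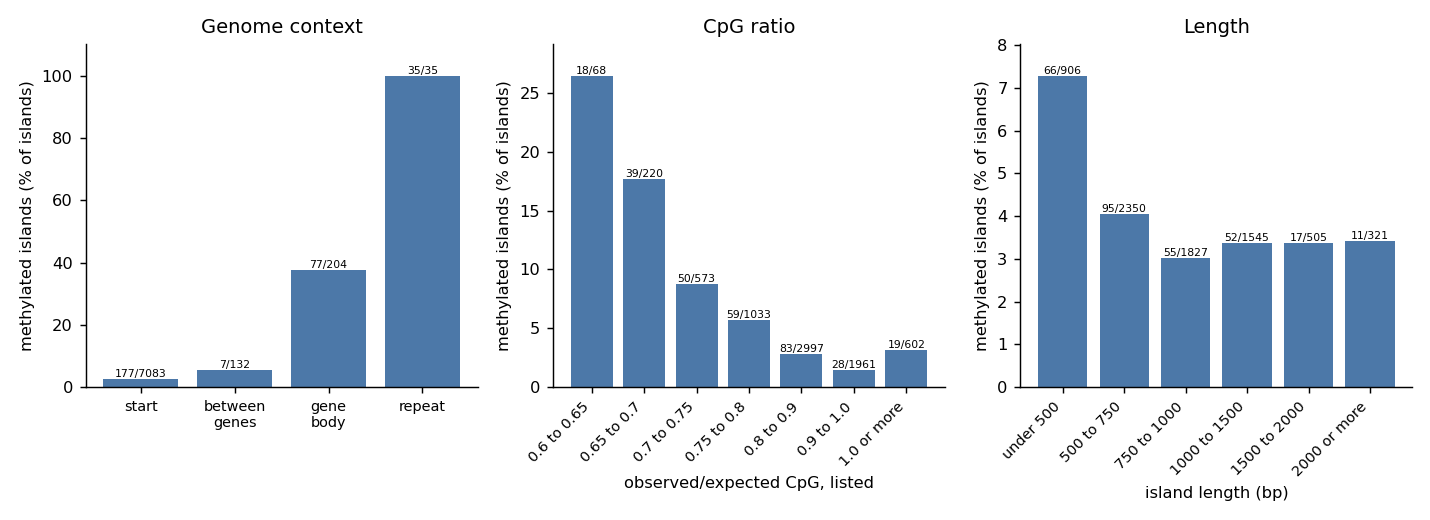
Methylated islands as a percentage of all autosomal islands with a value (vertical axes) by genome context, by listed CpG ratio and by length in bp, with members over islands above each bar. The share rises from 2.50% at starts to 100% in repeats, falls from 26.5% to 1.43% as the CpG ratio rises to 1.0, and is 7.28% in the shortest islands.

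The members were spread over all autosomes. Their share of the islands with a value ran from 1.70% on chromosome 9 to 6.64% on chromosome 7. Within 5 Mb of a chromosome end lay 7.77% of members and 8.06% of islands under 5%. Of the 296, 55 lay within 100 kb of another member, in 26 runs. The largest run had 4 members over 187 kb of chromosome 8, at Nr2f6 (5.37%), Abhd8 (10.8%), Ano8 (19.8%) and Nxnl1 (9.40%), among 13 islands with a value there. Speg, a muscle kinase, held 3 members at 14.8%, 8.52% and 13.6% out of 4 islands in its span. The tightest pairs were at Lrg1 (6.65% and 5.81%), at Nkx2-5 (8.69% and 58.7%) and at Gata2 (8.07% and 5.58%).

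Germline genes were the first group examined at transcript starts. Of 11 islands at starts of the germline genes listed for this purpose, 4 were members, all 4 were over 10% and 1 was over 50%. Members were 3.97% of all the islands, and the median over the 11 was 3.47%. The start of Sycp1, a protein of the synaptonemal complex that joins chromosomes in meiosis, was at 77.9%, 81.0%, 75% and 73.6% in Smchd1wt day 2 line 1, day 2 line 2, day 2.5 line 1 and day 2.5 line 2, and at 79.7%, 80%, 77.8% and 83.3% in Smchd1matΔ in the same order (chr3:102935375-102936230). Boll, an RNA-binding protein of spermatogenesis, averaged 37.0% ± 6.68 with values from 25.5% to 46.2%. Meioc, which extends meiotic prophase, averaged 24.7% ± 7.15, and the island shared by the starts of Mepce and Zcwpw1, a histone reader of meiotic recombination, averaged 20.3% ± 5.83. In all 4 the ranges of the genotypes overlapped when days were pooled.

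At starts of genes known for imprinting, 5 of 22 islands were members and none of them reached 10%. They were at the starts of Peg13 (7.99%), Kcnq1 (7.69%), Cdkn1c (7.27%), Airn (6.50%) and Igf2r (5.61%), and the median over the 22 was 0.662%. Peg13 was uneven: its Smchd1wt values were 2.38%, 5.88%, 0% and 1.39%, and its Smchd1matΔ values 18.2%, 21.9%, 12.2% and 1.96%, so 3 Smchd1matΔ libraries lay above all Smchd1wt libraries and the other overlapped them. At clustered gamma protocadherins, cell surface proteins of neurons, 2 of 3 islands were members, Pcdhgb2 at 15.7% and Pcdhgb5 at 11.7%.

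At starts of developmental regulators and zinc finger genes most islands were not members. Of 167 islands at starts of developmental regulators 9 were members (5.39%), and 2 of them passed 10%. The intron island of Nkx2-5, a cardiac transcription factor, stood at 58.7% ± 9.83, whereas the other Nkx2-5 island, towards the end of the gene, was at 8.69% ± 3.40. The others were Sox30 at 10.6%, Wnt7b at 9.23%, Gata2 at 8.07% and 5.58%, Foxl1 at 7.74%, Hoxa9 at 5.76% and Lhx3 at 5.09%. Among the 22 islands at starts of Hox genes Hoxa9 was the single member. A further member between genes, nearest to Gm27543 at 7.23%, lay with Hoxa9 in a run of 28.9 kb on chromosome 6. Of 162 islands at starts of zinc finger genes 3 were members (1.85%), Zfp575 at 13.1%, Zfp251 at 9.67% and Zbtb45 at 5.70%. Islands away from starts were not counted, such as members in Zfp319 at 30.2% and Zbtb7a at 66.9%.

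How far the level of an island varied between libraries depended on the class. The median range over the 8 libraries was 9.10 points in the low class, 18.8 in the middle class and 14.6 in the high class. In the low class an island nearest to Gm25352 moved by 1.18 points around 8.43%, and the AY036118 island by 1.48 points. In contrast, a Lhx3 island was at 25% in 1 library and at 0% in 5, and a Srrm3 island was at 25% in 1 library and at 7.5% or less in the others. In the middle class the Gdf1 island stayed between 24.6% and 29.2%, and one near Gm27844 between 8.33% and 13.6%, whereas Daxx ran from 17.9% to 68.3% and Kank2 from 15.0% to 73.3%. In the high class repeats near Mthfsl (61.1% to 65.9%) and Ttc27 (75.5% to 80.6%) were the steadiest, and exons of Tpst2 (50% to 90%) and Tmcc2 (50% to 100%) moved most. In all, 29 members were at 0 in at least 1 library and 157 were at or over 5% in every library.

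Choosing islands on some libraries and reading them in the others gave a check that the choice had not used. Of 306 islands at or over 5% on day 2, 256 (83.7%) were so on day 2.5, and their mean was 22.0% on the day that chose them and 21.1% on the other. Of 289 islands chosen in Smchd1wt, 261 (90.3%) passed in Smchd1matΔ, and of 309 chosen in Smchd1matΔ the same 261 (84.5%) passed in Smchd1wt. Of the 37 islands over 50% on day 2, 36 were so on day 2.5, and of the 42 over 50% on day 2.5 the same 36 were so on day 2. Among the 296 members, whose choice used all 8 values, 255 (86.1%) fell in the same class on both days, as a description that the choice partly sets.

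The first question was whether the level of methylated islands changed with the loss of maternal SMCHD1. At day 2 the mean over the members was 21.9% and 21.1% in lines 1 and 2 of Smchd1wt and 25% and 21.7% in lines 1 and 2 of Smchd1matΔ. The groups overlapped, because line 2 of Smchd1matΔ fell between the Smchd1wt lines. The difference was 1.88 points (23.4% ± 2.34 against 21.5% ± 0.503, SD, n = 2 each, two-sided exact permutation p = 0.667, where 0.333 is the smallest p that 2 against 2 allows). At day 2.5 the means were 21.2% and 21.4% in Smchd1wt and 24.2% and 21.2% in Smchd1matΔ, a difference of 1.36 points (22.7% ± 2.11 against 21.3% ± 0.153, n = 2 each, exact permutation p = 1). Averaged over days per line, the difference was 1.62 points (23.0% ± 2.23 against 21.4% ± 0.175, n = 2 lines each, exact permutation p = 0.667). Over all autosomal islands the mean differences were 0.0921, 0.0565 and 0.0743 points.

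These differences rested on 1 line. Without line 1 of Smchd1matΔ the difference was 0.220 points at day 2 and -0.130 points at day 2.5, and averaged over days it was 0.0448 points. In all 3 level classes the highest mean at each day was that of Smchd1matΔ line 1, while line 2 lay within 1 point of the Smchd1wt mean of the same day. Whether the difference belongs to the genotype or to a single line cannot be told apart with 2 lines per genotype.

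**Figure D3:**
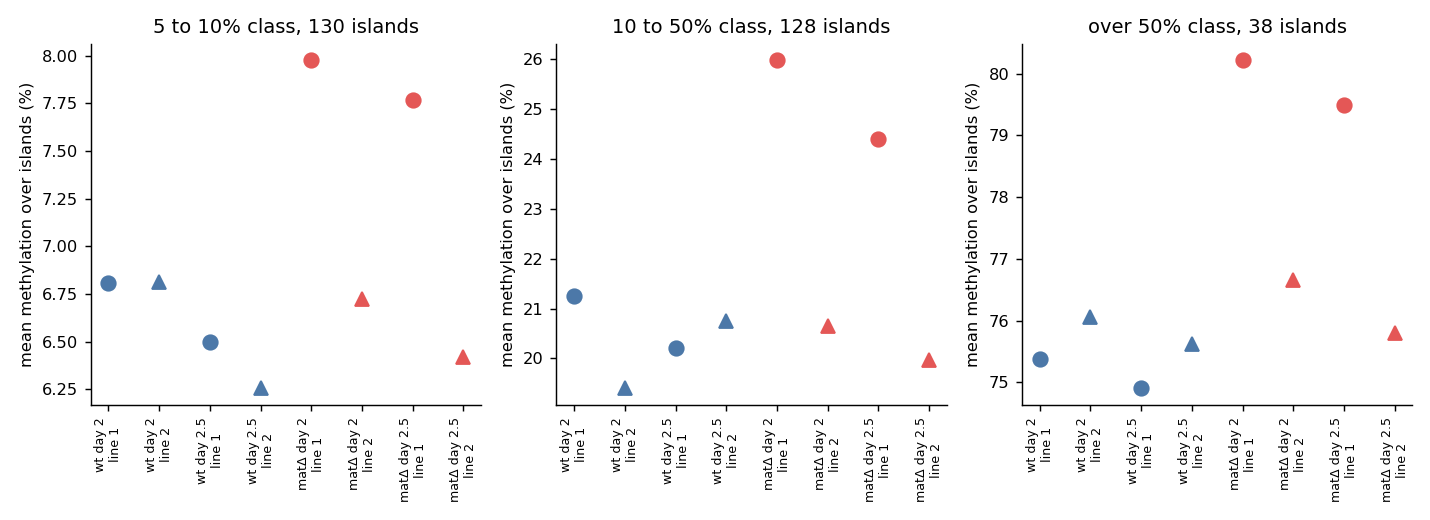
Mean methylation (%, vertical axes, which do not start at 0) over the islands of each level class in each of the 8 libraries, with Smchd1wt in blue, Smchd1matΔ in red, line 1 as circles and line 2 as triangles. Line 1 of Smchd1matΔ lies above the other libraries on both days in all 3 panels, at 26.0% and 24.4% in the middle class, where the other 6 lie between 19.4% and 21.3%.

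Single members gave no call. limma, fitted to the percentages of the 7196 islands that vary, called 0 members and 0% of all islands at an adjusted p under 0.05 in each genotype comparison. At an unadjusted p under 0.05 it listed 19 members (6.42%) at day 2, where 4.21% of all islands were listed, 12 (4.05%) at day 2.5 against 4.29%, and 16 (5.41%) averaged over days against 5.21%. The median standard error of a member's difference was 4.18 points, against 0.426 points over all islands, so even large changes in single members could have gone uncalled. Counting members whose groups did not overlap, Smchd1matΔ lay above Smchd1wt in 61 members (20.6%) at day 2 against 12.3% of all islands, and below in 30 (10.1%) against 11.7%. At day 2.5 it lay above in 57 (19.3%) against 11.4% and below in 38 (12.8%) against 13.1%. All 4 Smchd1matΔ libraries lay above all 4 Smchd1wt libraries in 7 members (2.36%) against 1.07% of islands, and below in 5 (1.69%) against 0.939%. Islands whose groups are tied cannot lie apart, and they enter the shares over all islands, which lowers those shares. Whether members differ from all islands in these shares was not tested.

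The member with the smallest p for genotype was a repeat between genes, 25546 bp from the start of Gm11795 (chr4:7733691-7734124, 97.7% masked). Its Smchd1wt values were 79.2% and 73.8% at day 2 and 79.2% and 78.6% at day 2.5, in lines 1 and 2. Its Smchd1matΔ values were 92.3% and 89.9%, then 90.9% and 90.9%, above every Smchd1wt value. The difference was 14.6 points at day 2 (SE 2.01, limma adjusted p = 0.509) and 12 points at day 2.5 (SE 2.01, limma adjusted p = 0.466). Leaving out line 1 of Smchd1wt at day 2 gave 17.3 points with a limma adjusted p of 0.0154, and over the 13 alternatives that p ran from 0.0154 to 0.860.

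The largest differences between genotypes belonged to members with a wide spread. In an exon of Cacna1b, a subunit of a neuronal calcium channel (chr2:24678984-24679525), Smchd1wt had 22.5% and 30% at day 2 and 38.2% and 22.1% at day 2.5, and Smchd1matΔ had 55.3% and 47.7%, then 39.7% and 37.5%. The day 2 difference was 25.2 points with an SE of 16.8 (limma adjusted p = 0.968), and the groups did not overlap at day 2 but did at day 2.5. In Tnfrsf13b (chr11:61147234-61147649), Smchd1wt had 35.7% and 30%, then 40% and 75%, and Smchd1matΔ had 75% and 41.4%, then 58.8% and 35.7%. The 8 values crossed in every direction, and the day 2 difference of 25.3 points had an SE of 21.1. The start of G2e3, a ubiquitin ligase, went the other way by -21.5 points at day 2 (SE 11.9), from 37.5% and 38.0% in Smchd1wt to 21.2% and 11.4% in Smchd1matΔ.

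At day 2.5 the 3 largest differences were in exons of Tmem259 (21 points, SE 14.2), Daxx (-18.9 points, SE 19.8) and Ankrd13b (17.1 points, SE 5.81). Tmem259 (chr10:79976710-79977771) had 17.5% and 19.6% in Smchd1wt and 42.5% and 36.7% in Smchd1matΔ on that day, and did not overlap. Ankrd13b had 7.42% and 16.7% against 33.3% and 25%, with a limma adjusted p of 0.960. Tpst2, an enzyme that sulfates tyrosines, was the third by the average over days, at 15.4 points with an SE of 7.96.

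The second question was whether methylated islands changed between the 2 days. Wnt signalling was activated at day 2, so the day comparison covers this treatment as well as time. The effects of time and treatment were not tested apart. The mean over the members moved by -0.185 points in Smchd1wt (21.3% ± 0.153 at day 2.5 against 21.5% ± 0.503, n = 2 each, exact permutation p = 1) and by -0.702 points in Smchd1matΔ (22.7% ± 2.11 against 23.4% ± 2.34, n = 2 each, exact permutation p = 0.667). Within lines the change was -0.649 and 0.279 points in Smchd1wt lines 1 and 2, and -0.870 and -0.535 points in Smchd1matΔ lines 1 and 2. Leaving out Smchd1wt day 2 line 1 turned the Smchd1wt change to 0.171 points, and the Smchd1matΔ change turned to 0.955 points without day 2 line 1 and to 0.787 points without day 2.5 line 2. Such an omission sets 2 lines on 1 day against 1 line on the other. The gap between lines, 3.15 points in Smchd1matΔ, therefore enters these values, and they do not measure the change within lines. limma called 0 members and 0% of all islands on either genotype, and at an unadjusted p under 0.05 it listed 9 members (3.04%) in Smchd1wt against 4.07% of islands and 20 (6.76%) in Smchd1matΔ against 4.41%.

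Among single members, Rasgef1a, a Ras exchange factor, had the smallest p for day in Smchd1wt. Its start was at 0% and 5.56% at day 2 and 18.2% and 20% at day 2.5 (16.3 points, SE 3.63, limma adjusted p = 0.700). In Smchd1matΔ it had 16.7% and 6.90%, then 7.14% in both lines, which did not rise together. Lrg1, a secreted glycoprotein, had the smallest p in Smchd1matΔ, going from 9.38% and 12.2% to 3.57% in both lines (-7.20 points, SE 1.35, limma adjusted p = 0.456). The largest shifts by size in Smchd1wt were in Tnfrsf13b (24.6 points, SE 21.1), at Gm45437 within Rasip1 (-23.8, SE 12.6) and in Psma6, a proteasome subunit (-17.3, SE 14.1). In Smchd1matΔ they were in Abhd17a (23.6, SE 18.5), Ankrd13b (15.6, SE 5.81) and Gsg1l, an accessory protein of AMPA receptors (-15.2, SE 5.89).

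Lines of the same genotype were compared last, each with its libraries of both days, which share the line and are no independent samples of it. In Smchd1wt the lines differed by 0.248 points (21.5% ± 0.459 against 21.3% ± 0.197, SD over 2 days, exact permutation p = 0.667), by 0.712 points at day 2 and by -0.216 points at day 2.5, so the direction turned with the day. In Smchd1matΔ line 1 lay above line 2 by 3.15 points (24.6% ± 0.615 against 21.5% ± 0.378, n = 2 each, exact permutation p = 0.333, the smallest the design allows), by 3.31 points at day 2 and 2.98 points at day 2.5. Over all autosomal islands that line difference was 0.149 points.

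The higher level of Smchd1matΔ line 1 was spread over many members but uneven. It lay above line 2 in 195 of the 296 members at day 2 and in 182 at day 2.5, on both days in 126 and below on both days in 43, whereas in Smchd1wt line 1 was above on both days in 74 and below in 65. Averaged over days, Smchd1matΔ line 1 was above line 2 in 201 members (67.9%), against 51.7% of all islands that differed. Shares over all islands were not counted for each day or for both days. Both libraries of Smchd1matΔ line 1 lay above the other 6 in 42 members (14.2%), against 3.65% of all islands. The same count was 5 members (1.69%) for Smchd1wt line 1 against 2.68%, 6 (2.03%) for Smchd1wt line 2 against 3.35%, and 6 (2.03%) for Smchd1matΔ line 2 against 2.64%. Tied islands again enter the shares over all islands. Members inside genes differed most between the Smchd1matΔ lines, by 5.80 points, repeats by 4.30, members at a start by 1.90 and the 7 between genes by -0.163. By class the difference was 1.30 points in the low, 4.88 in the middle and 3.62 in the high class. The members were chosen with line 1 among the libraries, so, as an alternative added after seeing the data, the comparison was repeated on islands chosen without it. Over the 284 islands at 5% or more in the mean of the other 6 libraries, line 1 was higher than those 6 by 2.78 points, and both of its libraries lay above them in 36 (12.7%). Over islands chosen in the same way for them, lines 1 and 2 of Smchd1wt differed from the other 6 by -1.16 and -1.48 points, and line 2 of Smchd1matΔ also lay below its other 6. In each case the other 6 both chose the islands and served as the reference, which favours lower values in the line left out. For these lines the other 6 also included Smchd1matΔ line 1. Over the 289 islands chosen in Smchd1wt alone, line 1 of Smchd1matΔ was above line 2 by 2.95 points.

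Across the 296 members, the line 1 minus line 2 difference of day 2 and that of day 2.5 had Pearson's r = 0.174 in Smchd1matΔ and -0.139 in Smchd1wt, as a description with no test, since the islands share libraries. limma called 0 members and 0% of all islands between lines of either genotype. At an unadjusted p under 0.05 it listed 31 members (10.5%) between the Smchd1matΔ lines against 4.52% of all islands, 23 of them higher in line 1, and 19 (6.42%) between the Smchd1wt lines against 4.03%. The smallest adjusted p of a member was 0.219 in Smchd1matΔ and 0.623 in Smchd1wt.

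**Figure D4:**
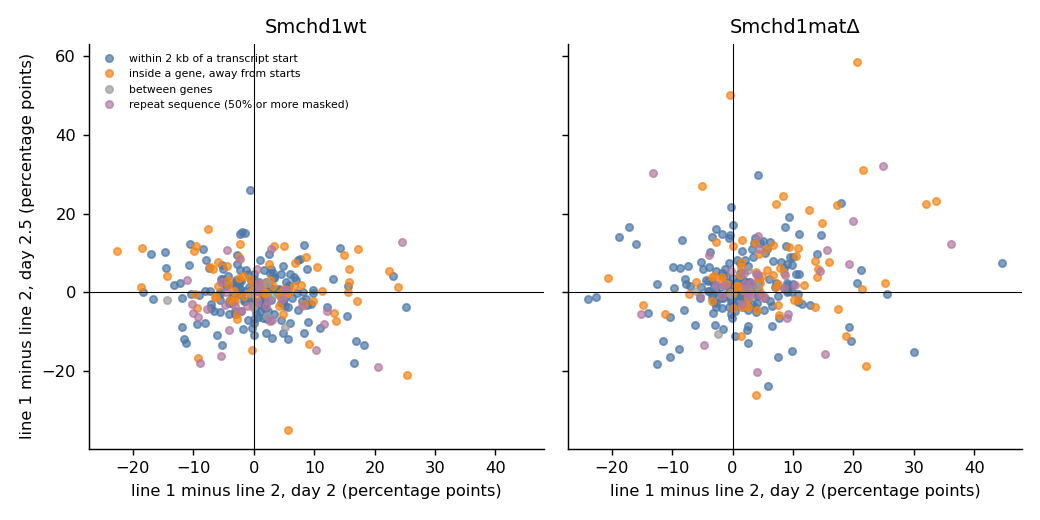
Each point is 1 of the 296 members, with line 1 minus line 2 in percentage points at day 2 (horizontal axis) and at day 2.5 (vertical axis), for Smchd1wt on the left and Smchd1matΔ on the right, coloured by genome context. In Smchd1matΔ the upper right part, with line 1 higher on both days, holds 126 points, against 74 in Smchd1wt. The same count was not made over all islands.

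The largest line differences in Smchd1matΔ were in named exons and a repeat. Kank2 (chr9:21795116-21795543) had 40% and 73.3% in line 1 at day 2 and day 2.5 and 19.4% and 15.0% in line 2, with 23.1% to 35.3% in Smchd1wt (39.4 points, SE 15.7, limma adjusted p = 0.956). A repeat in an intron of Lrp1b, a receptor of the LDL receptor family (chr2:42083455-42084119), had 50.5% and 59.4% in line 1 and 25.5% and 27.5% in line 2, with 20.4% to 38.9% in Smchd1wt. The difference was 28.4 points (SE 13.7), and line 1 of Smchd1matΔ was above all other libraries. Tnfrsf13b followed with 28.4 points (SE 18.4).

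The smallest p belonged to an island of the low class in a coding exon at the end of Anks1b, a synaptic ankyrin repeat protein (chr10:90969501-90970147). It had 15.9% and 13.2% in line 1 of Smchd1matΔ and 5% and 1.92% in line 2, with 3.57% to 4.55% in Smchd1wt (11.1 points, SE 1.48, limma adjusted p = 0.219). Without line 2 at day 2 the difference was 12.6 points with a limma adjusted p of 0.0429, without line 1 at day 2.5 it was 12.4 points with a limma adjusted p of 0.0429, and the range over the 12 alternatives was 0.0429 to 0.701. Between the Smchd1wt lines a repeat near Gm2077 (18.6 points, SE 14.5), Tnfrsf13b (-14.6, SE 18.4) and Zfp319 (14.1, SE 11.5) differed most. Tcp11l2 had the smallest p, with 11.1% and 7.94% in line 1 and 2.38% and 1.96% in line 2 (7.35 points, SE 1.68, limma adjusted p = 0.623).

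**Figure D5:**
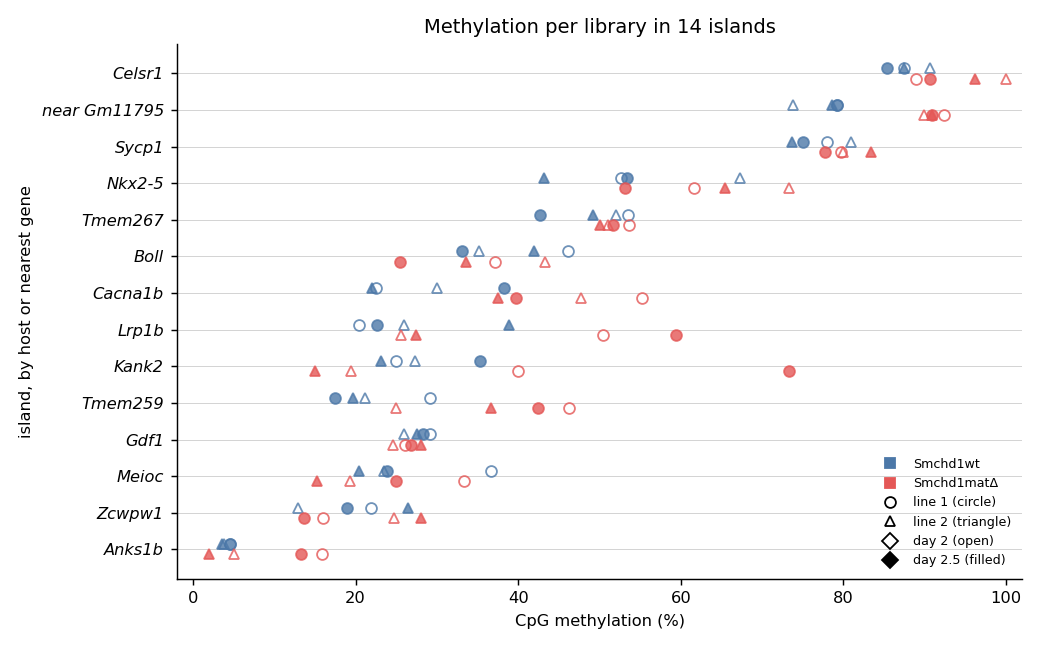
Methylation (%, horizontal axis) in each of the 8 libraries for 14 members named by their host or nearest gene, with Smchd1wt in blue, Smchd1matΔ in red, line 1 as circles, line 2 as triangles, day 2 open and day 2.5 filled. Sycp1 and Tmem267 keep their libraries within 11 points, the island near Gm11795 shows the Smchd1matΔ libraries above the Smchd1wt libraries, and Kank2 and Lrp1b show line 1 of Smchd1matΔ apart.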

How the data were processed

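RRBS libraries from 8 samples were analysed, 2 lines for each of 2 genotypes at each of 2 days, grouped by the sample titles. Per the labels and the study's methods, the authors trimmed reads with Cutadapt 1.15 and mapped them to GRCm38.p6 with Bismark 0.20.0. They deposited the percent methylation per CpG island, calculated in SeqMonk, with a minimum read number in every library and no scaling between libraries. Read counts were not used here, so depth, and with it counting precision, is unknown. The smaller table of Hox cluster islands repeats part of the full table and was not used.

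Members and gene lists were chosen with earlier results of these data known. Sequence features were counted on GRCm38.p6, and genes and transcript starts came from GENCODE vM21. An island was a repeat at 50% or more soft-masked bases, at a start within 2 kb of a transcript start, and otherwise inside or between genes. The listed CpG ratio was also recounted from the genome, and the 2 differed for most islands. Fragment ends of 75 bases at CCGG sites were converted in silico to find those that occur once.

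Differences of member means were tested with two-sided exact permutation tests over libraries, or over lines when days were averaged. Single islands were tested with limma 3.58.1 (R 4.3.3, trend) on the percentages of 7196 islands, with Benjamini-Hochberg adjustment over all of them, in a fit of the 4 groups, a fit of line means over days, and a fit of the 4 lines. The limma script was tested on simulated data. The permutation p-values set a difference against the spread between 2 lines, or 2 days of a line. limma pooled the spread over all groups or lines of a fit and moderated it with a trend across islands. The main day tests did not pair the days of a line, so the spread between lines enters their p-values. Line numbers name separate blastocysts, so they pair the days of a line but not the genotypes. Over all autosomal islands the line 1 minus line 2 differences of the 2 days had Pearson's r = 0.187 in Smchd1matΔ and -0.0996 in Smchd1wt. Named members were those of highest and lowest mean, smallest and largest range per class, largest difference and smallest p per comparison, greatest length, extreme CpG ratio, and members of the gene lists and largest runs. Sequences on chromosome 18, in repeats or over untranslated exons were left out.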

Additional observations from a re-analysis of the deposited data

Results flagged for a closer look

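In 123 checks on 40 named members and the mean over all members, 5 islands showed effects in opposite directions without overlap in 2 strata. Many of these members were named for a large difference, a wide range or a small p in the same values. Whether 5 of 123 is more than unrelated libraries would give was not tested. Of these, the difference between genotype effects was tested with limma's interaction and was not called for 2, and the difference between line effects was not tested for 3.

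The start of Rasgef1a differed by 9.0 points between genotypes at day 2 (Smchd1matΔ higher) and by -11.9 points at day 2.5, a change of -21.0 points (limma interaction adjusted p = 0.867). Its Smchd1wt values were 0% and 5.56%, then 18.2% and 20%, and its Smchd1matΔ values 16.7% and 6.90%, then 7.14% in both lines. An island at Lrg1 differed by 3.27 points at day 2 and by -1.20 points at day 2.5, a change of -4.47 points (limma interaction adjusted p = 0.867). The number of reads behind these percentages is unknown.

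The Lrp1b repeat had line 1 below line 2 by 10.9 points in Smchd1wt and above it by 28.4 points in Smchd1matΔ, a gap of 39.3 points. The Srrm3 island differed by 1.36 points between the Smchd1wt lines and by -11.9 points between the Smchd1matΔ lines, a gap of -13.3 points that rests on 25% in line 2 at day 2. The AY036118 island differed by 0.513 points and -0.719 points, a gap of -1.23 points within a total range of 1.48 points over the 8 libraries.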

How the results depend on the processing

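The genotype difference over members at day 2, its average over days, and the Smchd1matΔ line difference kept their direction under each alternative run. With 1 library left out, chosen after seeing the data, the line difference ran from -0.0766 points (without Smchd1wt day 2 line 1) to 0.572 points in Smchd1wt and from 2.71 to 3.58 points in Smchd1matΔ. At day 2.5 the genotype difference ran from -0.130 points without Smchd1matΔ line 1 to 2.85 points without line 2. The day change ran from -0.541 to 0.171 points in Smchd1wt and from -2.36 to 0.955 points in Smchd1matΔ when 1 library was left out, and it was 0.0111 points in Smchd1wt over islands of 10% or more. With 1 library left out, 2 lines stood against 1, so the gap between lines entered the day change. The line number as a replicate block gave the same 1.88 and 1.36 points for genotype. The cell line as a replicate block gave the same -0.185 and -0.702 points for day, and no block changed a call. Dropping line 1 of Smchd1matΔ on both days, chosen after seeing the data, left 0.0448 points.

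A minimum mean of 10% left 166 members, with a median length of 634 bp, a median CpG ratio of 0.75 and 48.8% at a start, and 157 islands were at 5% or more in each library. A window of 5 kb put 74.0% at a start, and class limits of 20 and 60% put 94.3% of members in the same class on both days, and 93.2% when the libraries numbered line 1 and those numbered line 2 were averaged over genotypes. Both shares use the values that chose the members, and lines of 1 number are not the same line in both genotypes.

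limma called 0 members under log2 values, a 1% filter, robust moderation, each block and each smaller set of libraries. Leaving out 1 library gave 0 to 1 called members for each genotype comparison at 1 day, for each day comparison and between Smchd1wt lines, 0 to 2 between Smchd1matΔ lines and 0 for genotype averaged over days. The called members were the Gm11795 repeat without Smchd1wt day 2 line 1, Fev without Smchd1wt day 2.5 line 1, a Rtl6 island without Smchd1wt day 2.5 line 2, Srrm3, Klf6 and an island near Gm24066 without Smchd1matΔ day 2 line 1, Zbtb45 and Anks1b without Smchd1matΔ day 2 line 2, Tmcc2 and Anks1b without Smchd1matΔ day 2.5 line 1, and Oprd1 and Srrm3 without Smchd1matΔ day 2.5 line 2. For these comparisons the fits that called any islands called 73 to 123 each, and 90.2% of their calls had no spread left among the remaining replicates. The Tnfrsf13b line difference in Smchd1wt ran from -37.1 to 7.86 points and turned sign without line 2 at day 2.5. With 2 lines per genotype and unknown depth, even a large change in a single member could go uncalled.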
